A study of Mus musculus with 12 samples.

Results

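The genes of ribosome biogenesis, the pathway that makes new ribosomes, were examined in RNA-seq libraries of mouse kidney. The group was a list of 36 gene symbols, and 35 of them had rows in the count and FPKM matrices, out of 24421 symbols. *Noc2l* had no row under that symbol and was not analysed here. Where a symbol had several transcripts, the transcript with the highest total count was used. All 35 genes passed edgeR's filter on low counts in each comparison, so none was dropped by it. The members were sorted by role into 2 RNA polymerase I subunits, 4 abundant nucleolar proteins, 4 box C/D snoRNP proteins, 3 box H/ACA snoRNP proteins, 6 proteins of the small-subunit processome, 5 of late small-subunit maturation and 11 of large-subunit assembly.

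The 12 libraries came from whole kidneys, 3 for each of 4 groups, of male mice aged 6 weeks. Their strain is C57BL/6 in the labels and C57BL/6J in the study's methods. WT and *Tet2*-/- mice gave baseline kidneys without an operation, and WT and *Tet2*-/- mice gave kidneys 24 h after ischemia-reperfusion (IR). IR was a 60 min clamp of the right renal pedicle followed by removal of the left kidney, so the IR effect measured here includes the surgery and the loss of the other kidney, which cannot be told apart from ischemia without libraries of sham-operated mice. *Tet2* encodes an enzyme that oxidizes 5-methylcytosine in DNA, and the mice were bred from heterozygous pairs. No promoter or Cre that would limit the deletion to a tissue is named, and nothing in the labels ties a library to a litter.

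Ribosomes are assembled in the nucleolus. RNA polymerase I transcribes the long precursor of the ribosomal RNAs, small nucleolar RNPs (snoRNPs) guide its chemical modification, and a large set of assembly factors cuts and folds it into the small and the large subunit. Making ribosomes is a main cost of cell growth, and the pathway is known to rise in cells that re-enter growth or division, such as tubule cells that repair an injured kidney. The transcription factor Myc is a known activator of many of its genes, and it binds the E-box CACGTG.

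The E-box is shown because Myc is a known activator of the pathway, and whether it took part in the values below was not tested. RefSeq promoters (GRCm38.p6, 250 bases before to 50 bases after the transcript start) were at hand for 30 of the 35 genes, and 6 of the 30 (20%) held CACGTG, a letter string that reads the same on both strands. The same letters were in 21 of 113 promoters (18.6%) of other genes of the pathway, in 8.09% of all 27025 genes with a promoter in the table and in 11.02% of those tested here. *Npm1*, *Rrs1*, *Fbl*, *Bop1* and *Rrp12* had no entry. The 6 sites follow, on the strand of the gene, with the E-box in capitals and up to 10 bases on each side.
Nop2, chr6:125131813-125131838, + strand: gtccctggatCACGTGtgttccggtg
Pes1, chr11:3963967-3963992, + strand: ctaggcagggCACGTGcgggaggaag
Wdr43, chr17:71616222-71616247, + strand: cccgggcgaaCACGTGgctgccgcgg
Tsr1, chr11:74898094-74898119, + strand: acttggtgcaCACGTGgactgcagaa
Ltv1, chr10:13193094-13193119, - strand: cctgtggaccCACGTGtggagctgcc
Utp20, chr10:88826765-88826787, - strand: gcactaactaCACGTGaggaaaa

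The site of *Nop2* began 60 bases before the first transcribed base, and those of *Pes1*, *Wdr43*, *Tsr1*, *Ltv1* and *Utp20* began 2, 17, 24, 28 and 37 bases after it. A match is a description of the letters and not a binding site. In a gene without a match, these letters are absent from this window, which says nothing else about the factor.

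Over the 12 libraries the 35 genes covered a wide range of levels. Read counts per library, baseline and IR, were between 457.5 for *Gar1* and 48232.5 for *Ncl*, so no value rests on few reads. By mean FPKM over the 12 libraries, which is per length and can be compared between genes, *Nhp2* was highest at 104, followed by *Npm1* at 58.7 and *Ncl* at 28.5. *Noc3l* at 2.60 and *Rrp1b* at 2.77 were lowest by the same mean. The summed FPKM of the genes was 356 to 431 in WT baseline libraries and 408 to 415 in baseline libraries labelled *Tet2*-/-. It was 467 to 574 in WT IR libraries and 680 to 783 in IR libraries labelled *Tet2*-/-, so the groups were ordered with no overlap between baseline, WT IR and labelled *Tet2*-/- IR libraries.

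**Figure D1:**
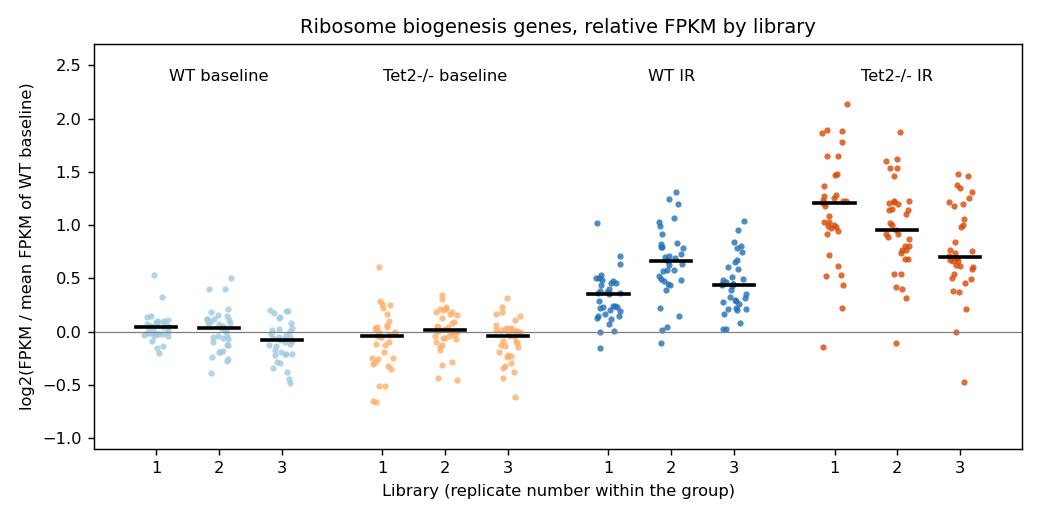
Each point is 1 of 35 ribosome biogenesis genes in 1 library, as log2 of its FPKM over its mean FPKM in WT baseline libraries (y axis), for the 3 libraries of each group (x axis), and black bars are medians over the genes. The medians were 0.35, 0.66 and 0.43 in WT IR libraries and 1.21, 0.96 and 0.70 in IR libraries labelled *Tet2*-/-, against -0.08 to 0.04 at baseline.

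The counts of *Tet2* itself were not lower in the baseline libraries labelled *Tet2*-/-. Its FPKM was 6.25 to 9.15 in WT baseline libraries and 9.24 to 16.6 in baseline libraries labelled *Tet2*-/-, and after IR it was 3.86 to 9.34 in WT and 1.76 to 3.20 in those labelled *Tet2*-/-. The genotype is therefore given as labelled. The libraries held 51007362 to 107969879 counts on the transcripts used, and fold changes are from edgeR's quasi-likelihood test with TMM normalization, given as log2 ± standard error, with p adjusted over all genes tested (Benjamini-Hochberg). A gene "passed" at an adjusted p under 0.05, and it was "called" when its log2 fold change was also over 1 or under -1. In every comparison but that of the genotypes at baseline, 0 of the 35 genes were lower at an unadjusted p under 0.05, where 11.3% of all genes were for IR in WT, 24.3% for IR in kidneys labelled *Tet2*-/-, 15.0% between the genotypes after IR and 12.6% in the interaction. These p-values measure the spread between 3 libraries of a group, and comparisons that share a group of libraries are not independent of each other. In whole tissue, a change in cell numbers and a change of RNA per cell cannot be told apart.

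After IR in WT kidneys, 34 of the 35 genes had a positive log2 fold change, with a median of 0.43 beside -0.03 over all genes tested, but few passed. *Fbl* and *Rrp12* rose, 33 genes did not pass and none fell. Thus 2 of 35 genes rose, where 1.88% of 16015 genes did, and 0 of 35 fell, where 1.14% did. Of the 35, 0 were called, where 1.46% of all genes were called higher. edgeR gave 19 of 35 higher at an unadjusted p under 0.05, where 11.4% of all genes were, and DESeq2 passed 11 of 35 higher, where it passed 6.88%, and called none of the 35. FPKM did not overlap between the groups for 24 of 35 genes, all higher after IR, where 18.9% of all genes were. On counts scaled for library size by TMM over all 12 libraries (CPM), there were 19 of 35, where 14.8% of all genes were.

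Fbl, the methyltransferase of the box C/D snoRNPs, had the lowest adjusted p. The FPKM of *Fbl* was 9.09, 8.12 and 8.35 in WT baseline libraries, 7.20, 7.70 and 8.74 in the labelled *Tet2*-/- baseline libraries, 17.3, 16.9 and 14.9 in WT IR libraries and 19.7, 19.8 and 17.7 in the labelled *Tet2*-/- IR libraries. All IR libraries stood above all baseline libraries, by a log2 fold change of 0.88 ± 0.12 in WT (adjusted p = 0.0202). Rrp12, a protein of late small-subunit maturation and export, was about as much higher. The FPKM of *Rrp12* was 2.48, 2.64 and 2.25 in WT baseline libraries, 2.53, 2.76 and 2.15 in the labelled *Tet2*-/- baseline libraries, 4.01, 5.63 and 4.40 in WT IR libraries and 9.07, 6.74 and 6.85 in the labelled *Tet2*-/- IR libraries. The WT change was 0.87 ± 0.16 (adjusted p = 0.0406), with no overlap. Nop56 had a larger fold change than both but a wider spread over WT IR libraries (0.91 ± 0.20, adjusted p = 0.0608), and it passed when the replicate number was fitted as a block (adjusted p = 0.0387).

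Leaving out 1 library changed these counts for all genes. None of the 35 genes passed when any 1 of the 3 WT baseline libraries was left out, or WT IR replicate 2 or 3, where 0.258% to 0.552% of all genes passed higher, and 6 of 35 passed without WT IR replicate 1, where 2.87% did. Over the 15 alternatives the fold change of *Fbl* was 0.86 to 0.93 and that of *Rrp12* 0.71 to 0.99. WT IR replicate 1 was the lowest of its group for 26 of 35 genes and WT IR replicate 2 the highest for 29. The summed FPKM of 5 injured tubule markers, among them *Havcr1* and *Lcn2*, was 316 in replicate 1 and 1096 and 981 in replicates 2 and 3. The part of this difference in the result was not tested.

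After IR in kidneys labelled *Tet2*-/-, most of the 35 genes rose. Of them, 29 passed higher, where 22.9% of 16358 genes did, and none fell, where 20.3% did. The median log2 fold change was 0.85 beside 0.04 over all genes. Scaling by library sizes alone shifted both, to 1.08 and 0.27. The call at a doubling was met by 10 genes, where 12.7% of all genes met it: *Ddx21*, *Nop56*, *Rrp12*, *Nop58*, *Dkc1*, *Gar1*, *Ddx10*, *Ppan*, *Ncl* and *Fbl*. FPKM did not overlap between the groups for 31 of 35 genes, where 40.5% of all genes were higher in this way. On TMM-scaled CPM 31 of 35 were higher without overlap, where 31.2% of all genes were, and 1 of 35, *Bysl*, was lower, where 25.6% were. Leaving out 1 library at a time left 20 to 29 of 35 past the test, where 14.5% to 23.4% of all genes passed higher, and 20 genes passed in every one of these fits. The 20 is the count without labelled *Tet2*-/- baseline replicate 3, where the 14.5% was also found. Of the 29 genes, 9 did not pass in all 6 of these fits: *Rrp1b* passed in 5, *Nop2* and *Wdr12* in 4, *Wdr75* in 3, *Polr1b*, *Rrp9*, *Nop14* and *Rrs1* in 2 and *Noc3l* in 1. Without labelled *Tet2*-/- IR replicate 3, *Nhp2* passed lower.

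**Figure D2:**
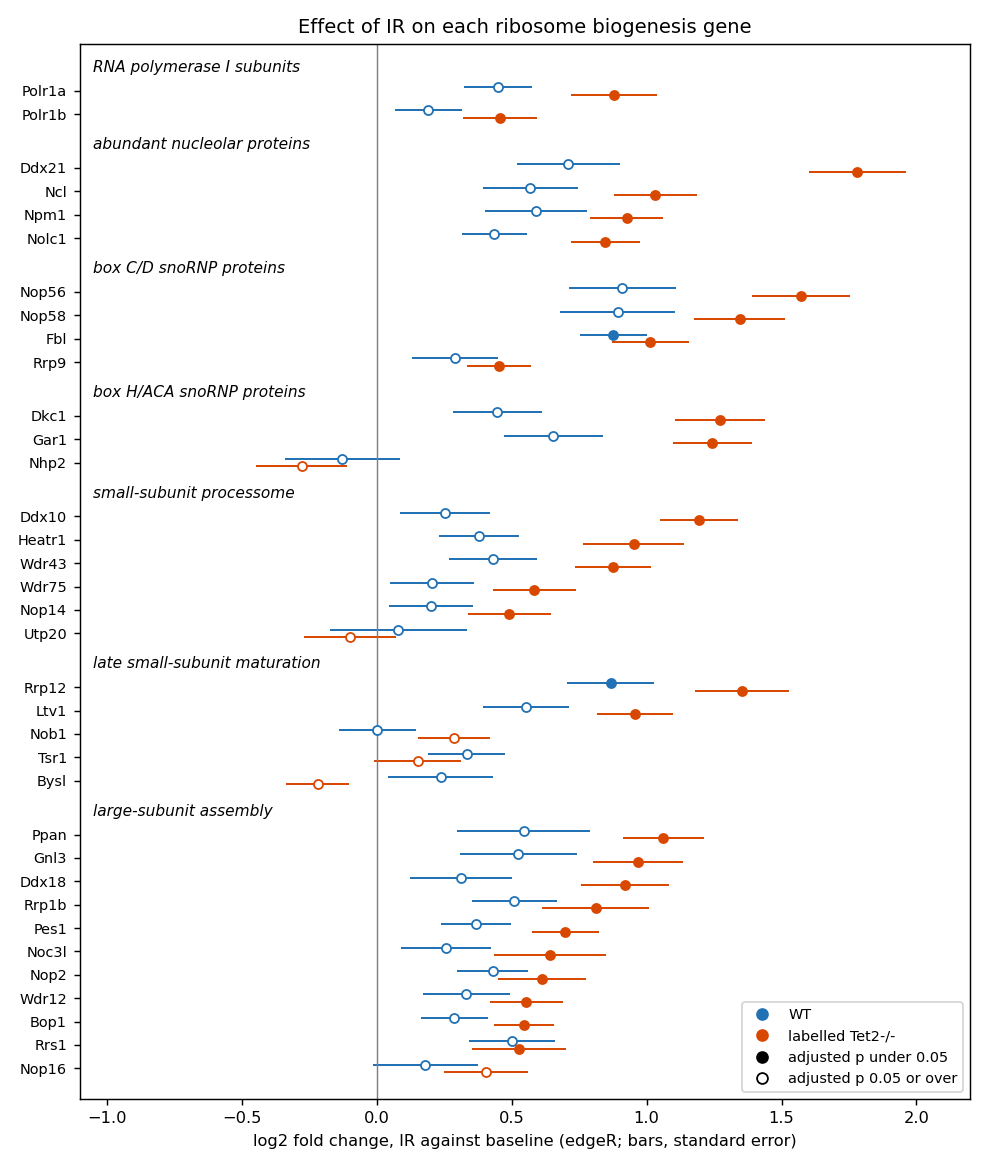
The log2 fold change of IR over baseline (x axis) is drawn for each gene (y axis, by role) in WT (blue) and in kidneys labelled Tet2-/- (orange), with bars of 1 standard error and filled points at an adjusted p under 0.05. Filled points number 2 in WT and 29 in kidneys labelled Tet2-/-, and the open points of the latter are *Nhp2*, *Utp20*, *Bysl*, *Tsr1*, *Nob1* and *Nop16*.

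Both RNA polymerase I subunits rose in kidneys labelled *Tet2*-/- and neither passed in WT. Polr1a is the largest subunit of the enzyme and Polr1b the next. The FPKM of *Polr1a* was 3.36, 3.60 and 3.27 in WT baseline libraries, 2.85, 3.31 and 2.92 in the labelled *Tet2*-/- baseline libraries, 4.39, 5.54 and 4.65 in WT IR libraries and 7.97, 6.84 and 5.23 in the labelled *Tet2*-/- IR libraries. Its change in kidneys labelled *Tet2*-/- was 0.88 ± 0.16, adjusted p = 0.00392, against 0.45 ± 0.13, adjusted p = 0.102 in WT, and IR and baseline libraries did not overlap in either. The FPKM of *Polr1b* was 5.53, 5.79 and 4.64 in WT baseline libraries, 6.18, 5.12 and 5.39 in the labelled *Tet2*-/- baseline libraries, 6.07, 6.97 and 5.96 in WT IR libraries and 10.2, 8.52 and 8.57 in the labelled *Tet2*-/- IR libraries. It rose less in kidneys labelled *Tet2*-/- (0.46 ± 0.14, adjusted p = 0.0296), and the WT value was 0.19 ± 0.12, adjusted p = 0.403.

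All 4 abundant nucleolar proteins rose in kidneys labelled *Tet2*-/-. Ddx21, an RNA helicase that links RNA polymerase I transcription to pre-rRNA processing, had the highest IR effect of the 35 genes there. The FPKM of *Ddx21* was 7.17, 6.51 and 8.49 in WT baseline libraries, 4.69, 6.06 and 5.68 in the labelled *Tet2*-/- baseline libraries, 10.1, 15.4 and 12.4 in WT IR libraries and 27.4, 21.4 and 18.8 in the labelled *Tet2*-/- IR libraries. Every IR library stood above every baseline library, and the change was 1.78 ± 0.18, adjusted p = 0.000400 in kidneys labelled *Tet2*-/- and 0.71 ± 0.19, adjusted p = 0.0931 in WT. Nolc1, a nucleolar phosphoprotein that binds snoRNPs, had the smallest effect of these 4 genes in both genotypes. The FPKM of *Nolc1* was 10.3, 10.9 and 9.83 in WT baseline libraries, 9.51, 10.5 and 9.74 in the labelled *Tet2*-/- baseline libraries, 13.2, 16.7 and 14.0 in WT IR libraries and 23.9, 22.7 and 17.6 in the labelled *Tet2*-/- IR libraries. Its changes were 0.85 ± 0.13, adjusted p = 0.00194 in kidneys labelled *Tet2*-/- and 0.44 ± 0.12, adjusted p = 0.0986 in WT.

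Nucleolin (Ncl), which binds the precursor RNA, and nucleophosmin (Npm1), a chaperone of the nucleolus, were among the 3 most abundant. The FPKM of *Ncl* was 20.9, 16.6 and 19.4 in WT baseline libraries, 19.5, 19.1 and 18.7 in the labelled *Tet2*-/- baseline libraries, 24.4, 33.5 and 30.2 in WT IR libraries and 52.8, 43.5 and 43.5 in the labelled *Tet2*-/- IR libraries. The FPKM of *Npm1* was 43.2, 39.0 and 37.9 in WT baseline libraries, 39.8, 37.4 and 44.1 in the labelled *Tet2*-/- baseline libraries, 47.4, 71.2 and 69.1 in WT IR libraries and 96.7, 88.6 and 90.4 in the labelled *Tet2*-/- IR libraries. The highest baseline library of each lay below its lowest IR library. *Ncl* changed by 1.03 ± 0.15, adjusted p = 0.00177 in kidneys labelled *Tet2*-/- and by 0.57 ± 0.18, adjusted p = 0.126 in WT, and *Npm1* by 0.93 ± 0.13, adjusted p = 0.00160 and 0.59 ± 0.19, adjusted p = 0.136. The coding sequence of *Npm1* has 3 copies elsewhere in the genome at 95% identity or more over at least 50% of its length, so reads may be split between them and its count is uncertain. *Ddx18* and *Pes1* have 2 such copies each and *Fbl* and *Wdr12* 1.

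The box C/D snoRNP proteins, which carry out ribose methylation of ribosomal RNA, all rose in kidneys labelled *Tet2*-/-, and 3 of the 4 were called. Nop56 and Nop58 form the scaffold of the particle. The FPKM of *Nop56* was 8.35, 8.32 and 7.65 in WT baseline libraries, 8.22, 8.57 and 7.42 in the labelled *Tet2*-/- baseline libraries, 11.7, 19.2 and 16.7 in WT IR libraries and 35.7, 29.7 and 21.0 in the labelled *Tet2*-/- IR libraries. In kidneys labelled *Tet2*-/- the change was 1.57 ± 0.18, adjusted p = 0.000625. *Nop58* changed by 1.35 ± 0.17, adjusted p = 0.000863 there and by 0.89 ± 0.21, adjusted p = 0.0761 in WT, and *Fbl* by 1.01 ± 0.14, adjusted p = 0.00137 in kidneys labelled *Tet2*-/-. Rrp9, a protein of the snoRNP that takes part in early cleavage, had the smallest effect. The FPKM of *Rrp9* was 9.06, 10.8 and 8.02 in WT baseline libraries, 10.4, 10.6 and 9.72 in the labelled *Tet2*-/- baseline libraries, 10.7, 13.7 and 11.1 in WT IR libraries and 18.2, 17.5 and 14.7 in the labelled *Tet2*-/- IR libraries. Its IR and baseline libraries overlapped in WT (0.29 ± 0.16, adjusted p = 0.325) and not in kidneys labelled *Tet2*-/- (0.45 ± 0.12, adjusted p = 0.0184).

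Of the box H/ACA proteins, which carry out pseudouridylation, 2 of 3 rose in kidneys labelled *Tet2*-/-. Dkc1 is the pseudouridine synthase and Gar1 and Nhp2 are its partners in the particle. The FPKM of *Gar1* was 5.16, 5.09 and 4.29 in WT baseline libraries, 4.84, 5.59 and 4.83 in the labelled *Tet2*-/- baseline libraries, 7.51, 9.90 and 6.59 in WT IR libraries and 15.2, 14.7 and 13.4 in the labelled *Tet2*-/- IR libraries. *Gar1* was higher in every IR library, by 1.24 ± 0.15, adjusted p = 0.000657 in kidneys labelled *Tet2*-/- and 0.65 ± 0.18, adjusted p = 0.103 in WT. The FPKM of *Dkc1* was 3.90, 3.47 and 4.53 in WT baseline libraries, 2.53, 2.90 and 2.93 in the labelled *Tet2*-/- baseline libraries, 5.17, 6.29 and 5.49 in WT IR libraries and 9.32, 8.51 and 6.43 in the labelled *Tet2*-/- IR libraries. *Dkc1* changed by 1.27 ± 0.17, adjusted p = 0.00103 and 0.45 ± 0.17, adjusted p = 0.173. The FPKM of *Nhp2* was 91.4, 128 and 71.3 in WT baseline libraries, 118, 113 and 109.9 in the labelled *Tet2*-/- baseline libraries, 87.3, 90.2 and 98.5 in WT IR libraries and 88.0, 121 and 126 in the labelled *Tet2*-/- IR libraries. *Nhp2*, the most abundant of the 35 genes, overlapped between IR and baseline libraries of each genotype and gave -0.28 ± 0.17, adjusted p = 0.213 in kidneys labelled *Tet2*-/- and -0.13 ± 0.21, adjusted p = 0.765 in WT. Without labelled *Tet2*-/- IR replicate 3 the former value was -0.44 (adjusted p = 0.0392), and without labelled *Tet2*-/- IR replicate 1 it was -0.15 (adjusted p = 0.474). The difference of its fold changes from those of *Gar1* and *Dkc1* was not tested.

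**Figure D3:**
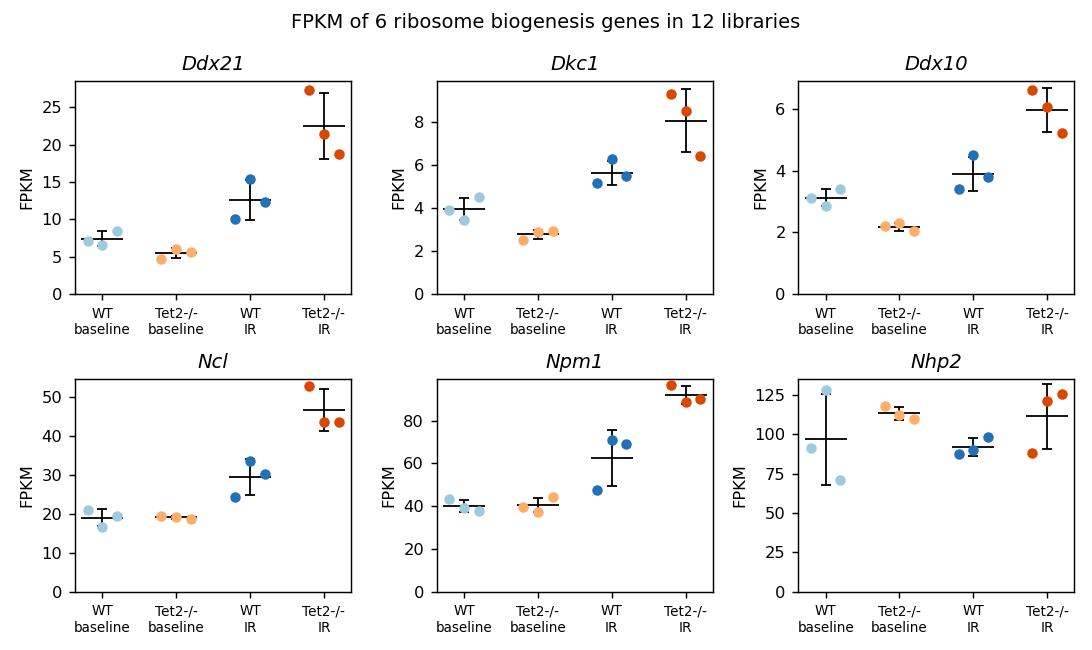
FPKM (y axes, from 0) of 6 genes is drawn for the 3 libraries of each of the 4 groups (x axes), with black lines for the mean ± SD. *Ddx21*, *Dkc1* and *Ddx10* were lower in baseline libraries labelled Tet2-/- than in WT and highest in their IR libraries, *Ncl* and *Npm1* did not separate at baseline, and *Nhp2* overlapped between IR and baseline in each genotype.

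In the small-subunit processome, the large early complex on the precursor RNA, 5 of 6 genes rose in kidneys labelled *Tet2*-/- and none passed in WT. Ddx10, an RNA helicase, changed most. The FPKM of *Ddx10* was 3.10, 2.86 and 3.41 in WT baseline libraries, 2.19, 2.31 and 2.04 in the labelled *Tet2*-/- baseline libraries, 3.40, 4.497 and 3.78 in WT IR libraries and 6.62, 6.06 and 5.21 in the labelled *Tet2*-/- IR libraries. The change was 1.19 ± 0.14, adjusted p = 0.000744 in kidneys labelled *Tet2*-/- with no overlap, and 0.25 ± 0.17, adjusted p = 0.408 in WT, where baseline and IR libraries overlapped. Wdr43, one of the proteins that join the nascent transcript first, had the largest effect of this role in WT. The FPKM of *Wdr43* was 7.42, 6.51 and 6.16 in WT baseline libraries, 6.47, 6.75 and 6.81 in the labelled *Tet2*-/- baseline libraries, 7.79, 10.3 and 10.1 in WT IR libraries and 17.3, 14.8 and 12.004 in the labelled *Tet2*-/- IR libraries. Its changes were 0.88 ± 0.14, adjusted p = 0.00243 in kidneys labelled *Tet2*-/- and 0.43 ± 0.16, adjusted p = 0.181 in WT.

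*Heatr1*, *Wdr75* and *Nop14*, further proteins of this complex, rose in kidneys labelled *Tet2*-/- by 0.95 ± 0.19, 0.58 ± 0.15 and 0.49 ± 0.15, with adjusted p of 0.00577, 0.0185 and 0.0351. Utp20, a large scaffold protein, did not pass. The FPKM of *Utp20* was 8.09, 4.29 and 4.43 in WT baseline libraries, 4.49, 5.13 and 4.47 in the labelled *Tet2*-/- baseline libraries, 6.83, 5.79 and 5.95 in WT IR libraries and 6.54, 5.20 and 4.04 in the labelled *Tet2*-/- IR libraries. A single WT baseline library stood at 8.09, above all others, and the changes were 0.08 ± 0.25, adjusted p = 0.879 in WT and -0.10 ± 0.17, adjusted p = 0.665 in kidneys labelled *Tet2*-/-.

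Of the 5 genes of late small-subunit maturation, 2 rose in kidneys labelled *Tet2*-/-, namely *Rrp12* (1.35 ± 0.17, adjusted p = 0.000935) and *Ltv1* (0.96 ± 0.14, adjusted p = 0.00169). Nob1 is the endonuclease that makes the last cut of the small-subunit RNA. The FPKM of *Nob1* was 13.5, 14.9 and 10.7 in WT baseline libraries, 12.6, 12.7 and 14.7 in the labelled *Tet2*-/- baseline libraries, 13.0, 14.5 and 13.3 in WT IR libraries and 21.5, 19.0 and 17.9 in the labelled *Tet2*-/- IR libraries. Its FPKM did not overlap between IR and baseline libraries labelled *Tet2*-/-, yet the test did not pass (0.29 ± 0.13, adjusted p = 0.120), and in WT the change was 0.0020 ± 0.14 (adjusted p = 0.995).

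Tsr1 and Bysl, 2 further maturation factors, did not pass in either genotype. In kidneys labelled *Tet2*-/- *Tsr1* gave 0.15 ± 0.16, adjusted p = 0.472 and *Bysl* -0.22 ± 0.12, adjusted p = 0.165. The exons of both lie on top of those of genes on the opposite strand. *Tsr1* shares 1240 exon bases (32.3% of its exon length) with *Srr*, and *Bysl* shares 353 (9.16%) with *Ccnd3*. In the same comparison *Srr* fell by 0.85 and *Ccnd3* fell by 0.91 on the log2 scale (adjusted p = 0.00198 and 0.00315).

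Shorter overlaps with the opposite strand were found for 9 further genes. *Dkc1* shares 45 exon bases (1.09%) with *Mpp1*, which had 220183 counts over the 12 libraries, against 16947.5 for *Dkc1*. *Mpp1* rose by 1.35 in WT (adjusted p = 0.0447) and by 1.47 in kidneys labelled *Tet2*-/- (adjusted p = 0.00364), and between the genotypes after IR it differed by 0.19 (adjusted p = 0.704). *Nop56* shares 5 bases with *Idh3b* and *Gnl3* 8 with *Glt8d1*, and these neighbours fell in kidneys labelled *Tet2*-/-, by 0.87 and 0.72 (adjusted p = 0.00310 and 0.0131). *Nhp2* shares 44 bases with *Rmnd5b* and *Wdr12* 61 with *Carf*, neither of which passed. The stretches shared with genes that had no row in the matrices were 185 bases for *Polr1a*, 144 for *Nop14*, 138 for *Pes1*, 100 for a further stretch of *Nop56* and 43 for *Bop1*. On their own strand *Nop56* and *Ppan* hold snoRNAs of 70 to 85 bases in their exons. Whether the counting used strand is not given in the sources used here, so the counts of all these genes are uncertain, most of all that of *Tsr1*, and the part of shared reads in their values was not tested.

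In large-subunit assembly 10 of 11 genes rose in kidneys labelled *Tet2*-/- and none passed in WT. Ppan, an assembly factor that binds the precursor of the large subunit, changed most. The FPKM of *Ppan* was 7.71, 12.6 and 6.36 in WT baseline libraries, 10.6, 9.71 and 10.4 in the labelled *Tet2*-/- baseline libraries, 12.4, 15.4 and 12.7 in WT IR libraries and 30.6, 25.8 and 20.6 in the labelled *Tet2*-/- IR libraries. The IR libraries labelled *Tet2*-/- stood above all others, by 1.06 ± 0.15, adjusted p = 0.00139 over baseline, and in WT the groups overlapped (0.54 ± 0.25, adjusted p = 0.248). Nop16 changed least and was the one gene of the role that did not pass. The FPKM of *Nop16* was 16.6, 12.4 and 10.8 in WT baseline libraries, 12.9, 11.8 and 12.9 in the labelled *Tet2*-/- baseline libraries, 18.2, 13.4 and 15.5 in WT IR libraries and 19.0, 17.7 and 22.5 in the labelled *Tet2*-/- IR libraries. It gave 0.41 ± 0.16, adjusted p = 0.0684 in kidneys labelled *Tet2*-/- and 0.18 ± 0.20, adjusted p = 0.618 in WT.

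The subunits of the PeBoW complex, which is needed for large-subunit RNA processing, rose in kidneys labelled *Tet2*-/-, *Pes1* by 0.70 ± 0.12, *Bop1* by 0.55 ± 0.11 and *Wdr12* by 0.55 ± 0.14. *Gnl3* (nucleostemin) rose by 0.97 ± 0.17, the helicase gene *Ddx18* by 0.92 ± 0.16, *Rrp1b* by 0.81 ± 0.20, *Noc3l* by 0.64 ± 0.21, the RNA methyltransferase gene *Nop2* by 0.61 ± 0.16 and *Rrs1* by 0.53 ± 0.17. Their adjusted p ranged from 0.00323 for *Gnl3* to 0.0413 for *Rrs1*. In WT these 9 genes gave 0.26 to 0.53.

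Between the genotypes at baseline, none of the 35 genes passed in either direction, where 0.0124% of 16086 genes passed higher and 0.0% lower. With p not adjusted and under 0.05, edgeR gave 1 of 35 higher, *Bysl* (0.51 ± 0.20, adjusted p = 0.400), where 3.56% of all genes were, and 2 of 35 lower, *Dkc1* and *Ddx10*, where 8.2% were. DESeq2 also passed none of the 35, where it passed 0.516% of all genes higher and 438 of 16077 lower. Nor did limma, where it passed 0.0124% of all genes higher and 0 lower. The median log2 fold change was 0.09, beside 0.00 over all genes. FPKM of *Ddx21*, *Dkc1*, *Ddx10* and *Ddx18* was lower in every baseline library labelled *Tet2*-/- than in every WT baseline library, which is 4 of 35 genes, where 16.5% of all genes were. On TMM-scaled CPM there were 3 of 35, where 11.8% of all genes were. Their fitted differences were -0.34 ± 0.15, -0.42 ± 0.16, -0.43 ± 0.14 and -0.28 ± 0.16. With 3 libraries against 3, the smallest two-sided p of an exact permutation test on such a single gene is 0.1.

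After IR, 33 of the 35 genes were on the higher side in kidneys labelled *Tet2*-/- relative to WT, with a median log2 fold change of 0.41 beside 0.04 over all genes, and *Gar1* and *Ppan* passed. These 2 of 35 stand beside 3.51% of 16186 genes that passed higher. Lower values passed for 0 of 35, where 6.17% did, and 0 of 35 were called higher, where 2.3% were. edgeR gave 18 of 35 higher at an unadjusted p under 0.05, where 13.9% of all genes were. This count was 6 of 35 without WT IR replicate 1, where 10% of all genes were higher, and 7 of 35 without labelled *Tet2*-/- IR replicate 1, where 11.7% were. DESeq2 passed 10 of 35 higher, where it passed 8.92%. limma passed 5 on log2(FPKM + 1), where it passed 4.53%, and 6 on log2(FPKM + 0.1), where it passed 5.39%. *Gar1* was 6.59 to 9.90 FPKM in WT IR libraries and 13.4 to 15.2 in IR libraries labelled *Tet2*-/- (0.76 ± 0.16, adjusted p = 0.0325). *Ppan* was 12.4 to 15.4 and 20.6 to 30.6 (0.83 ± 0.16, adjusted p = 0.0266).

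FPKM of 22 of 35 genes was higher in every IR library labelled *Tet2*-/- than in every WT IR library, where 22.0% of all genes were, and on TMM-scaled CPM that of 23 of 35, where 17.3% were. *Utp20* (-0.34 ± 0.18, adjusted p = 0.268) and *Tsr1* (-0.17 ± 0.14, adjusted p = 0.461) were the 2 genes on the lower side. Leaving out WT IR replicate 2 left 2 of 35 past the test, where 2.49% of all genes passed higher, and leaving out labelled *Tet2*-/- IR replicate 3 left 1, where 1.59% did. None of the 35 passed without WT IR replicate 1, WT IR replicate 3, labelled *Tet2*-/- IR replicate 1 or labelled *Tet2*-/- IR replicate 2, where 0.425%, 0.556%, 0.722% and 1.38% of all genes did. Within the IR libraries labelled *Tet2*-/-, replicate 1 was the highest for 29 genes and replicate 3 the lowest for 27. Replicate 3 also stood apart in markers of other cells. The summed FPKM of 8 adipocyte markers was 682 there and 221 and 131 in replicates 1 and 2, that of 5 markers of the thick ascending limb and distal tubule 415 against 2170.9 and 2692, and that of 8 neutrophil markers 74.8 against 133 and 126. In WT IR replicate 3 the 5 podocyte markers summed to 3.23, against 24.9 in each of replicates 1 and 2, and the 5 endothelial markers to 4.97, against 39.2 and 28.1. The part of these differences in the results was not tested.

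The interaction asks whether the IR effect differs between the genotypes. It was larger in kidneys labelled *Tet2*-/- for *Ddx21* (1.11 ± 0.28, adjusted p = 0.0325), *Ddx10* (0.98 ± 0.21, adjusted p = 0.0192) and *Dkc1* (0.87 ± 0.23, adjusted p = 0.0401), 3 of 35 genes where 3.78% of 16741 were higher in this test. Of the 35, 0 passed in the other direction, where 5.38% did. At p under 0.05 without adjustment 10 of 35 were higher, where 14.6% of all genes were, and DESeq2 passed 3 of 35, where it passed 7.23%. The 10 became 4 of 35 without WT IR replicate 1 (12.1% of all genes) and without labelled *Tet2*-/- IR replicate 1 (12.6%), 5 without labelled *Tet2*-/- baseline replicate 1 (12.7%) or 3 (10.1%) and 6 without WT baseline replicate 2 (11.9%). The median over the 35 was 0.42 beside 0.10 over all genes. For the other 32 genes, *Fbl* and *Nop56* among them, a difference in the IR effect between genotypes was not shown. With the replicate number as a block, *Dkc1* did not pass (adjusted p = 0.0622) and the other two did.

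The 3 genes had in common that their baseline FPKM was lower in libraries labelled *Tet2*-/-, as given above, so their interaction adds a difference at baseline to one after IR, neither of which passed by itself. Compared after IR alone, their differences between the genotypes were 0.74 for *Ddx21* (adjusted p = 0.0664), 0.52 for *Ddx10* (adjusted p = 0.0836) and 0.41 for *Dkc1* (adjusted p = 0.143). No gene of the 35 passed the interaction without labelled *Tet2*-/- baseline replicate 3, where it was higher for 0.865% of all genes, and 1 passed without labelled *Tet2*-/- baseline replicate 1 or 2, labelled *Tet2*-/- IR replicate 1, WT baseline replicate 1 or 3, or WT IR replicate 1 or 3, where it was for 1.34% to 2.47%. *Ddx10* passed in 11 of the 12 fits that left out a library, *Ddx21* in 4 and *Dkc1* in 3. In the files' mm9 coordinates *Ddx21* lies at chr10:62042995-62065046, *Ddx10* at chr9:52906559-53056217, both on the - strand, and *Dkc1* at chrX:72341193-72355115 on the + strand.

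Markers of other cell types moved with these comparisons. The summed FPKM of 8 neutrophil markers, led by *S100a8* and *S100a9*, was 0.647 to 2.86 at baseline, 4.08 to 9.51 in WT IR libraries and 74.8 to 133 in IR libraries labelled *Tet2*-/-, and 7 of 7 tested rose after IR in the latter. *Elane* was at 0 in some libraries. The 8 macrophage markers summed to 25.0 to 46.7 at baseline, 27.8 to 45.4 in WT IR and 53.5 to 186 in labelled *Tet2*-/- IR libraries. The 186 was replicate 2, where *Lyz2* was 119.7, against 13.1 and 5.36 in replicates 1 and 3. In WT 2 of 8 rose, *Cd68* (adjusted p = 0.00842) and *Cd14* (adjusted p = 0.0444), and 0 fell. In kidneys labelled *Tet2*-/- 3 of 8 rose and 1 fell. The marker that fell was *Csf1r*, the receptor of a macrophage growth factor, at 18.1 to 30.9 FPKM in baseline and 2.21 to 6.93 in IR libraries labelled *Tet2*-/- (adjusted p = 0.00125). The 8 markers of proliferating cells, most of whose sum is *Pcna*, summed to 14.2 to 19.9 at baseline, 40.7 to 57.3 in WT IR and 39.8 to 76.0 in labelled *Tet2*-/- IR libraries, and 5 of 8 rose in each genotype, among them *Pcna*, *Mcm2* and *Mcm5*, which code for parts of the DNA replication machinery. *Mki67* did not pass in either (adjusted p = 0.113 in WT and 0.622 in kidneys labelled *Tet2*-/-), and *Top2a* passed in WT but not in kidneys labelled *Tet2*-/- (adjusted p = 0.0183 and 0.0804).

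The 5 injured tubule markers summed to 5.76 to 26.6 at baseline, 316 to 1096 in WT IR and 2786 to 2988 in labelled *Tet2*-/- IR libraries, and 3 of 5 rose in WT and 4 of 5 in kidneys labelled *Tet2*-/-. The 8 markers of the proximal tubule are among the most abundant RNAs of kidney, and most of their sum is *Kap*. They summed to 34858 to 53611 at baseline, 22603 to 26570 in WT IR and 14719 to 23531 in labelled *Tet2*-/- IR libraries. In WT 0 of 8 passed in either direction, and in kidneys labelled *Tet2*-/- 6 of 8 fell. All 5 podocyte markers rose in kidneys labelled *Tet2*-/-, from 13.7 to 19.1 summed FPKM at baseline to 42.9 to 87.8 after IR, and 3 of 5 of the thick ascending limb and distal tubule, 1 of 5 of the collecting duct and 2 of 8 of lymphocytes fell. No marker of endothelium or fibroblasts passed. Adipocyte markers, with 1 of 4 tested higher, ranged from 74.7 to 316 at baseline, from 56.8 to 110.5 in WT IR and from 131 to 682 in labelled *Tet2*-/- IR libraries. No list shares a gene with the 35. Between the genotypes after IR, 6 of 7 neutrophil and 2 of 8 macrophage markers were higher in kidneys labelled *Tet2*-/-, and 4 of 8 of the proximal tubule and 1 of 5 of the collecting duct were lower. The part of these cell types in the results was not tested.

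**Figure D4:**
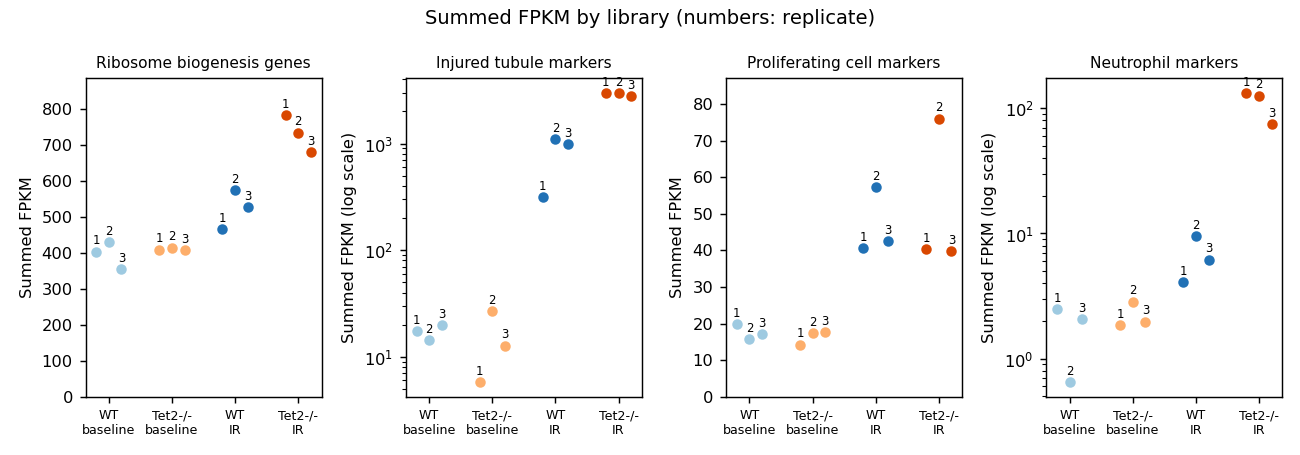
Summed FPKM by library (y axes, from 0 or on a log scale where labelled) is drawn for the 35 ribosome biogenesis genes and for 3 lists of marker genes in the 4 groups (x axes), with numbers for the replicate. Ribosome biogenesis genes summed to 467, 574 and 528 in WT IR libraries 1 to 3 and to 783, 735 and 680 in IR libraries labelled Tet2-/-.

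Of 139 other genes of ribosome assembly, 63 rose and 6 fell after IR in kidneys labelled *Tet2*-/-, with a median log2 fold change of 0.39, where 22.9% of all genes rose and 20.3% fell. In WT 2 rose and none fell, with a median of 0.17, where 1.88% rose and 1.14% fell. Those 2 were *Eif6*, whose product keeps the large subunit from joining too early, and *Nol9*, a kinase gene of large-subunit RNA processing. The FPKM of *Eif6* was 50.5, 46.6 and 45.2 in WT baseline and 103, 129 and 119.8 in WT IR libraries, a change of 1.25 ± 0.14 (adjusted p = 0.0106). That of *Nol9* was 5.18, 5.61 and 5.92 against 8.68, 9.59 and 7.90, a change of 0.58 ± 0.11 (adjusted p = 0.0481). Between the genotypes, 4 were higher and 1 lower after IR, where 3.51% and 6.17% of all genes were. The interaction was higher for 5 and lower for 2, where it was for 3.78% and 5.38%.

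By role, after IR in kidneys labelled *Tet2*-/-, 28 of 54 other genes of large-subunit assembly rose and 2 fell, 16 of 39 of the small-subunit processome rose and 1 fell, 6 of 10 snoRNP proteins and assembly factors rose, 6 of 14 subunits and cofactors of the RNA exosome rose and 3 fell, 3 of 9 of late small-subunit maturation rose, and 2 of 6 RNA polymerase I subunits and 2 of 7 of its factors rose. The genes of cytosolic ribosomal proteins, the structural parts that this pathway assembles, were added after the data were seen. Of 83 tested, 13 rose and 5 fell, where 22.9% and 20.3% of all genes did, with a median of 0.25, and the median in WT was 0.14. No test compared these lists with the 35 genes.

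Among 19 regulators of the pathway, 2 rose after IR in WT, where 1.88% of all genes did, and 5 rose and 4 fell in kidneys labelled *Tet2*-/-, where 22.9% rose and 20.3% fell. *Myc* was 1.64, 1.496 and 1.66 FPKM in WT baseline, 3.78, 1.93 and 1.85 in labelled *Tet2*-/- baseline, 3.51, 11.2 and 12.003 in WT IR and 32.1, 20.1 and 15.6 in labelled *Tet2*-/- IR libraries. Every IR library stood above every baseline library of its genotype. *Myc* changed by 2.44 ± 0.46 in WT (adjusted p = 0.0428) and by 2.92 ± 0.36 in kidneys labelled *Tet2*-/- (adjusted p = 0.000839). Its interaction did not pass (0.52 ± 0.62, adjusted p = 0.625). *Eif4ebp1*, an inhibitor of translation initiation that acts under mTOR, changed by 1.38 ± 0.26 (adjusted p = 0.0432) and 2.86 ± 0.28 (adjusted p = 0.000379), and its interaction was 1.52 ± 0.40 (adjusted p = 0.0393).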

How the data were processed

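Kidney RNA libraries (12 in all, 3 per group) were aligned with STAR to mm9 and counted on RefSeq transcripts with HOMER, per the labels and the study's methods (versions not given in the sources used here). The deposited expected counts rise in steps of 0.5, with 38.7% not whole, and were rounded before testing, although the written design assumed whole counts. The authors deposited FPKM of the same transcripts, used here for values by library. FPKM carries no TMM scaling.

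Counts were tested with edgeR 4.0.16 in R 4.3.3 (TMM, filterByExpr, quasi-likelihood F test, Benjamini-Hochberg over all genes). Each of 4 pairwise comparisons used its own 6 libraries and the interaction all 12. limma 3.58.1 and DESeq2 1.42.0 were alternatives.

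The members, the other lists and the tests were chosen with earlier results of these data known. Values in every library were given, in each role, for the genes with the highest and lowest IR effect in WT, the 4 with the smallest interaction p and the 3 with the highest mean FPKM. Of other genes, those of the 3 largest changes in WT among passing ones in each list, and *Myc*, were named. *Fbl* in every library, the genes that overlap members, *Csf1r* and the markers of proliferating cells named were added after their values were seen.

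Overlaps were read from GENCODE vM1 on NCBIM37, over the exons of all transcripts of a gene. Copies were searched with BLAST 2.17.0, and of 35 members 26 have an end that matches an annotated transcript end. Over all genes tested, the deviations of an IR library and the baseline library with its number correlated at 0.349, 0.349 and 0.344 for WT and at 0.120, 0.350 and 0.202 for labelled *Tet2*-/- libraries. The mice were different ones, so nothing but these values pairs them.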

Additional observations from a re-analysis of the deposited data

Results flagged for a closer look

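The effect of IR differed between the genotypes for 3 of the 35 genes by the interaction test of edgeR over all 12 libraries. That test passed 3.78% of all genes higher, and DESeq2 passed 3 of 35 higher, where it passed 7.23%. The difference was 1.11 for *Ddx21*, 0.98 for *Ddx10* and 0.87 for *Dkc1* on the log2 scale, higher in kidneys labelled *Tet2*-/-. Over 20 alternatives *Ddx10* passed in 19 (adjusted p 0.000248 to 0.0566), *Ddx21* in 12 (0.00521 to 0.0743) and *Dkc1* in 10 (0.00735 to 0.0985). Groups of 3 libraries are too small for a test of single outlying libraries.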

How the results depend on the processing

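With 3 libraries a group, 29 genes passed higher for IR in kidneys labelled *Tet2*-/- (22.9% of all genes). Over 15 alternatives 20 to 31 did (14.5% to 32.6% of all genes), and 20 of the 29 passed in all of them. None of the genes that passed for IR in WT, genotype after IR or the interaction passed in all alternatives, and at baseline none passed between the genotypes in any. Without a fold change threshold, the numbers of genes called higher were 2 (IR in WT), 29 (IR in kidneys labelled *Tet2*-/-) and 2 (genotype after IR), in place of 0, 10 and 0. In kidneys labelled *Tet2*-/- 19 were called higher with library sizes alone (17.5% of all genes, in place of 12.7%) and 19 with limma on log2(FPKM + 0.1) (15.7%), scales on which the median of all genes also lies higher. The interaction was higher for 6 genes with limma on log2(FPKM + 1) and 6 on log2(FPKM + 0.1), in place of 3, as it was for 6.39% and 6.73% of all genes in place of 3.78%, and the cause was not tested. DESeq2 passed 11 genes in place of 2 for IR in WT and 10 in place of 2 for genotype after IR, and a fit of all 12 libraries passed 5 and 12, where it passed 3.94% and 8.08% of all genes. At an unadjusted p under 0.05, library sizes alone gave 27 genes higher between the genotypes after IR in place of 18 (18.6% of all genes) and 21 in the interaction in place of 10 (21.0%), and limma gave 23 and 25 (17.7% and 17.9%) and 23 and 22 (20.7% and 20.9%) at pseudocounts of 1 and 0.1. Leaving out 1 library gave 0 to 2 genes called higher for IR in WT (0.258% to 2.24% of all genes), 7 to 13 in kidneys labelled *Tet2*-/- (9.8% to 13.6%), 0 to 4 with a higher (0.865% to 5.77%) and 0 to 1 with a lower interaction. Over these fits, from 485 of 16978 to 1064 of 16980 genes had a lower interaction. The 1 gene was *Bysl* without WT baseline replicate 2 (adjusted p = 0.0371), where 818 of 16945 genes were lower.

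The genes near no change turned sign. For *Nob1*, IR in WT gave -9.79e-05 with no filter, -0.0191 with a mean FPKM of at least 1 and -0.11 to 0.12 without 1 library. For *Utp20*, IR in kidneys labelled *Tet2*-/- gave 0.13 with library sizes alone, 0.12 and 0.14 with limma at both pseudocounts and -0.31 to 0.0229 without 1 library, its IR effect in WT ran from -0.0667 to 0.44 without 1 library, and its interaction was 0.0046 with library sizes alone. For *Bysl*, IR in kidneys labelled *Tet2*-/- gave 0.0080 with library sizes alone and 0.0405 and 0.0438 with limma. For *Nhp2*, IR in WT ran from -0.30 to 0.13 and the interaction from -0.42 to 0.0542 without 1 library, and the interaction was 0.0361 with library sizes alone.

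With the replicate number as a block, 29 genes passed for IR in kidneys labelled *Tet2*-/- (10 called), 3 for IR in WT, 2 for genotype after IR, 0 at baseline and 2 in the interaction, where 22.9%, 4.11%, 4.09%, 0.0124% and 6.12% of all genes passed higher, and which of the 35 genes passed changed there for *Nop56* for IR in WT and *Dkc1* in the interaction and for no other. Between the genotypes the numbers did not pair the libraries (correlations of -0.17, -0.15 and 0.05 at baseline, and -0.00015, 0.21 and 0.30 after IR).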
